A study of Mus musculus with 16 samples.

Results

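Interferon-stimulated genes that encode sensors, effectors and regulators of the type I interferon response were read out of the whole gene table of mouse leukaemia cells. The 48 members were matched by gene symbol among 55487 genes; the OAS family, the interferon-inducible GTPases and the MHC genes were left out of the list. Of these, 44 passed a filter on low counts that left 14435 genes. The other 4 were Ifit3b, Ifitm1, Phf11a and Phf11b, with at most 40, 20, 6 and 9 expected counts in any library. Counts of members below are over the 44 unless another number is given. Fits with other settings or with 1 library left out tested 38 to 48 members. A member that passed the filter only through a group where it was high had to differ between groups, so the counts describe the members and support nothing by themselves.

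Type I interferon binds the receptor IFNAR1/IFNAR2, and the kinases JAK1 and TYK2 then phosphorylate STAT2, among others. STAT2 acts with IRF9 in the complex ISGF3, which binds the interferon-stimulated response element (ISRE) in promoters. The induced products detect foreign nucleic acid, attach the ubiquitin-like protein ISG15 to other proteins, and block viral translation, entry and release, while others such as USP18 dampen the pathway. Blood-forming cells keep a low level of this programme without infection.

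The cells were primary mouse leukaemia cells with the fusion gene CBFB::MYH11 (the inv(16) oncogene) and GFP, carrying an shRNA against MYH11 under doxycycline control. They were grafted into congenic mice and recovered by sorting for GFP; the labels do not say which blood cells the hosts kept. Secondary disease is 4 spleen libraries from a separate cohort kept on doxycycline until signs of fatal disease. The groups at 7 days were spleen doxycycline, spleen control, bone marrow doxycycline and bone marrow control, with 3 libraries each. Doxycycline was given at 3 mg/ml in drinking water with 5% sucrose, and controls drank 5% sucrose alone. The labels of the controls name only fusion-expressing cells, whereas the series' design describes the shRNA for every graft. Doxycycline was never given to cells lacking the shRNA, and drug and knockdown cannot be told apart. Mouse age, strain, the shRNA's promoter and the number of leukaemia clones are not given in the sources used here.

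Libraries held 12259707 (secondary disease replicate 4) to 39419370 (spleen control replicate 3) expected counts. Nothing in the labels says that replicates came from separate mice, so p-values measure only the spread between these libraries. The 3 spleen doxycycline libraries differed from each other by a chi-square of 228 to 495 per degree of freedom, and secondary disease replicate 4 differed from the other 3 by 227 to 251, against 7.87 to 50.3 for all other replicate pairs. Kit, a receptor of blood progenitors, was at 54.1 to 270 CPM (counts scaled to library size with TMM factors) and the progenitor factor gene Myb at 80.3 to 224 CPM over the 16 libraries. The stem cell marker Cd34 was at 0 to 0.897 CPM, and Ptprc, which encodes the leukocyte antigen CD45, at 1.06 to 17.3 CPM. In bulk samples like these, fewer cells of a type and less RNA per cell cannot be told apart.

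Relative to gene length, 30 of the 48 members had a median of at least 10 TPM (abundance scaled to gene length and library size) over 16 libraries, 7 had 1 to under 10 TPM and 11 had under 1 TPM. The highest medians were those of Uba7, the enzyme that activates ISG15, at 218 TPM, Ifi27, a mitochondrial interferon-induced protein, at 156 TPM and Ifitm2, a membrane protein that restricts viral entry, at 141 TPM. Isg15 had a median of 89.8 TPM with a range from 20.9 to 475 TPM. Several classic reporters of acute interferon exposure had few counts. Mx1, a dynamin-like antiviral GTPase, had 0 to 37 counts in a library, Ifit3 had 1 to 51 and Zbp1, a sensor of Z-form nucleic acid, had 0 to 52. Rsad2 (viperin) had 2 to 137 counts, with 3.36 to 5.76 CPM in the 3 spleen controls.

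The ligands themselves were almost absent from these libraries. Of 20 interferon genes listed, 7 had any count, the highest was 8 counts of Ifng in bone marrow control replicate 2, and their sum ran from 0 to 0.298 CPM. None passed the filter, so none was tested. Ifnar1 and Ifnar2, the receptor chains, were at 34.3 to 53.4 CPM and 31.3 to 77.1 CPM.

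Promoters from RefSeq (build GRCm38.p6, 250 bases before to 50 after the start site) were held for 39 of the 48 members. None was held for Ifi27, Usp18, Mx1, Zbp1, Mx2, Parp9, Rtp4, Dhx58 and Parp14. The letters GAAANNGAAA, a core of the ISRE, were searched on both strands and found in 17 of 39 members (43.6%), against 1079 of 27025 genes (3.99%). The letters TTCNNNGAA, the gamma-activated sequence (GAS), which is its own reverse complement, were in 8 of 39 members (20.5%), against 9.55% of all genes, and overlapped an ISRE core in Bst2 and Ifitm3. Among genes with a single promoter in the table, the ISRE core was in 15 of 31 members (48.4%), against 3.58%, and GAS in 4 of 31 (12.9%), against 8.49%. Windows of members that the comparisons below turn on are given 5′ to 3′ in the direction of transcription, with the ISRE core letters in capitals. Isg15, which rose in bone marrow and fell in secondary disease, carried 3 overlapping cores, while Ifit1 and Bst2 carried 2 each and Ifitm2 carried 1. Phf11d, the 1 member that rose in secondary disease against spleen control, and Irf7 had no match in the window searched, and their last 100 bases before the start site are shown. A match is only a match of letters.
Isg15, chr4:156200835-156200936, minus strand: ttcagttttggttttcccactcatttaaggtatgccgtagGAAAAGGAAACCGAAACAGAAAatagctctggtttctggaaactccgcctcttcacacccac
Ifit1, chr19:34640745-34640853, plus strand: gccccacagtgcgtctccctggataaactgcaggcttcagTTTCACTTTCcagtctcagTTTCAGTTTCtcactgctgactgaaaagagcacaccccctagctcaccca
Bst2, chr8:71537547-71537642, minus strand: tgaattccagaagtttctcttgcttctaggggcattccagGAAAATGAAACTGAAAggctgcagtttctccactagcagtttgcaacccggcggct
Ifitm2, chr7:140955962-140956047, minus strand: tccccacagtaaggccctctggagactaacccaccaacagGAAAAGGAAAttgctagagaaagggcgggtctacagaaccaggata
Phf11d, chr14:59365491-59365590, minus strand: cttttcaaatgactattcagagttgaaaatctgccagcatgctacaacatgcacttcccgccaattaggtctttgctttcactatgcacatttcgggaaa
Irf7, chr7:141266425-141266524, minus strand: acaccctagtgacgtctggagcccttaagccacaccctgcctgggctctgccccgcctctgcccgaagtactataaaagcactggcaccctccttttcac

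Across the 5 groups, spleen control held the highest mean CPM for 27 of the 44 members, and secondary disease the lowest for 36. Over all 14435 genes, spleen control was highest for 18.5% and secondary disease lowest for 21.7%. Bone marrow doxycycline was highest for 10 members (24.8% of all genes) and bone marrow control for 4 (16.5%). Spleen doxycycline was highest for 2 (15.6%) and secondary disease for 1 (24.6%). The order was known when the members were chosen, so it is a description. The single library with the most members at their highest value was spleen doxycycline replicate 2, with 17. The one with the most at their lowest was secondary disease replicate 4, with 19. The same shares over all genes were not computed. Both libraries differed from their replicates over all genes too, by a chi-square of 241 to 495 and 227 to 251 per degree of freedom.

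The members' median log2(CPM + 0.5) was 3.32, 3.47, 3.45 and 3.71 in the secondary disease libraries, 5.30, 6.04 and 3.84 in spleen doxycycline, and 5.85, 5.90 and 5.90 in spleen control. In bone marrow it was 5.37, 5.76 and 5.49 with doxycycline and 5.05, 5.24 and 5.13 in controls. The 4 secondary disease libraries lay below all others, and spleen doxycycline alone spread over nearly the whole range, with replicate 2 above every spleen control and replicate 3 next to secondary disease.

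**Figure D1:**
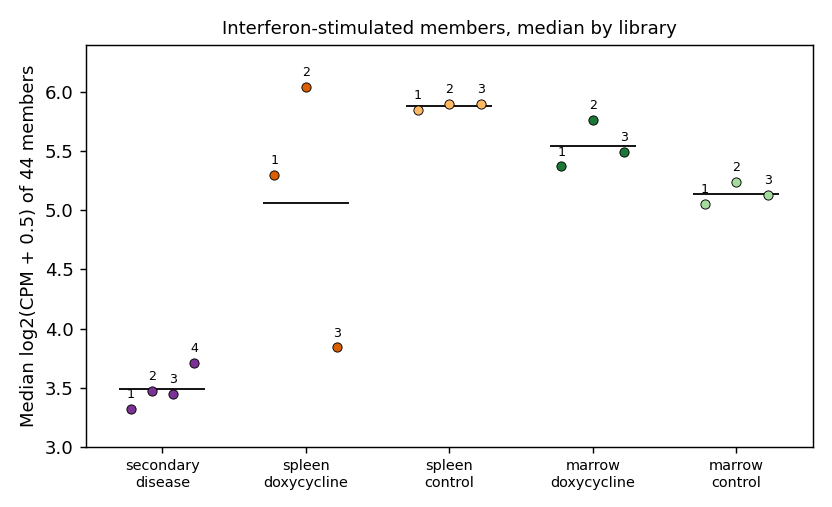
Median log2(CPM + 0.5) of the 44 members that passed the filter (y axis) in each of 16 libraries, by group (x axis); points are libraries with their replicate numbers and bars are group means. Secondary disease lies between 3.32 and 3.71 and spleen control between 5.85 and 5.90, while spleen doxycycline runs from 3.84 to 6.04.

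**Figure D2:**
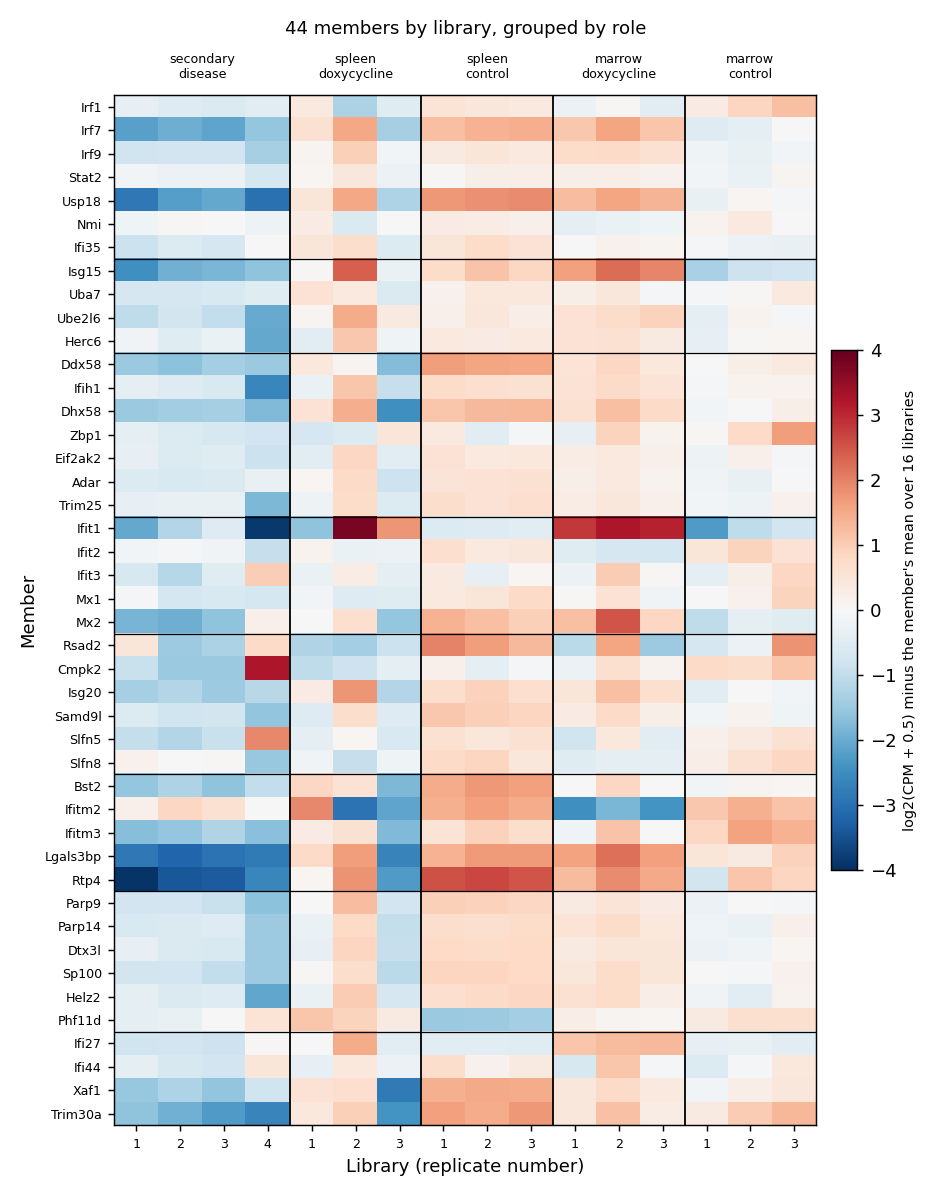
Log2(CPM + 0.5) of each member (rows, grouped by role) minus that member's mean over 16 libraries, for each library (columns, by group); red is above and blue below the mean. Rtp4, Lgals3bp, Usp18 and Trim30a are blue in all 4 secondary disease libraries, and Phf11d is at its lowest in the 3 spleen control libraries.

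Secondary disease against spleen control asked how leukaemia that progressed under doxycycline differs from untreated spleen leukaemia. Members of most role groups were lower, among them Usp18, Irf7, Isg15, Ddx58, Rtp4 and Lgals3bp. Of the 44 members, 22 fell, 1 rose and 21 did not pass the test (adjusted p under 0.05), where 1.28% of all genes fell and 0.748% rose. The members' median log2 fold change was −1.48, against 0.02 over all genes, and 36 members lay below all 3 spleen controls in all 4 libraries (12.4% of all genes). Neutrophil markers were also lower, at a summed 2.46 to 63.8 CPM in secondary disease, against 52.9 to 166 CPM in spleen control: 10 of 10 had a negative log2 fold change (median −2.11) and 0 passed the test. Their part in the members' values was not tested. The same spleen controls serve the comparison of spleen doxycycline below.

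Among genes of signalling and feedback, 4 of 7 fell. Usp18 (ENSMUSG00000030107, chr6:121245906-121270917, plus strand, GRCm38), which strips ISG15 from proteins and blocks signalling at IFNAR2, had 1.28, 2.27, 2.58 and 1.13 CPM in secondary disease, against 41.7, 45.0 and 47.0 CPM in spleen control. No library of one group came near the other. The log2 fold change was −4.59 ± 0.50 (SE; edgeR quasi-likelihood test, adjusted p = 6.07e-04). Irf7 (ENSMUSG00000025498, chr7:141262706-141266481, minus strand), the factor that amplifies interferon gene transcription, had 9.32, 10.9, 9.88 and 14.8 CPM in secondary disease, against 103, 116 and 121 CPM in spleen control. All 4 lay far below the controls, and the log2 fold change was −3.34 ± 0.45 (edgeR adjusted p = 0.00201). Irf9, the DNA-binding subunit of ISGF3, fell by 1.32 ± 0.21 on the log2 scale (edgeR adjusted p = 0.00648), and Ifi35, a partner of Nmi, fell by 1.09 ± 0.25 (edgeR adjusted p = 0.0387). Stat2, the other ISGF3 subunit in the list, was at 39.9 ± 7.00 CPM (SD, n = 4) in secondary disease and 56.4 ± 4.82 CPM (n = 3) in spleen control, and its log2 fold change of −0.50 ± 0.17 did not pass (edgeR adjusted p = 0.176). Irf1 and Nmi also did not pass.

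The ISG15 machinery fell in 3 of 4 members. Isg15 (ENSMUSG00000035692, chr4:156199424-156200818, minus strand) had 6.91, 10.2, 11 and 12.6 CPM in secondary disease, against 66.6, 88.9 and 70.7 CPM in spleen control. The groups did not overlap, and the log2 fold change was −2.89 ± 0.50 (edgeR adjusted p = 0.00910). Ube2l6, the E2 enzyme for ISG15, fell by 1.44 ± 0.31 (edgeR adjusted p = 0.0321) and Uba7 by 0.95 ± 0.22 (edgeR adjusted p = 0.0428). Uba7 stayed abundant, at 220 ± 14.6 CPM (SD, n = 4) in secondary disease and 424 ± 40.9 CPM (n = 3) in spleen control. Herc6, the ligase for ISG15 in mice, did not pass.

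Among 7 sensors of foreign RNA and DNA, 3 fell. Ddx58 (ENSMUSG00000040296, chr4:40203773-40239828, minus strand), which encodes RIG-I, had 13.3, 11.8, 14.6 and 13.2 CPM in secondary disease, against 121, 115 and 112 CPM in spleen control. The secondary disease libraries were nearly identical and well below the controls, with a log2 fold change of −3.13 ± 0.35 (edgeR adjusted p = 6.44e-04). Dhx58 (LGP2), a regulator of RIG-I and MDA5, fell by 2.80 ± 0.55 (edgeR adjusted p = 0.0193), and Adar, the RNA-editing enzyme that marks cellular RNA as self, by 1.08 ± 0.25 (edgeR adjusted p = 0.0428). Ifih1, which encodes MDA5, had 38.3, 33.8, 32.1 and 7.63 CPM in secondary disease, against 82.1, 78.0 and 75.2 CPM in spleen control, and did not pass (log2 fold change −1.48 ± 0.46, edgeR adjusted p = 0.130). All 4 libraries were below the controls, with replicate 4 far under the other 3. Eif2ak2 (PKR), Trim25 and Zbp1 did not pass either.

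Of the membrane and secreted effectors, 4 of 5 fell, with the lowest median log2 fold change of the 8 role groups, −3.04. Rtp4 (ENSMUSG00000033355, chromosome 16, 23520291 to 23614222, plus strand), a receptor transporter protein, had 0.124, 0.391, 0.429 and 1.04 CPM in secondary disease, against 54.7, 58.8 and 53.1 CPM in spleen control. With 3 counts in one library it was close to undetected in secondary disease, and the log2 fold change was −6.94 ± 0.90 (edgeR adjusted p = 0.00163). Lgals3bp (ENSMUSG00000033880, chr11:118392751-118402092, minus strand), a secreted galectin-binding glycoprotein, had 6.33, 4.96, 5.86 and 6.51 CPM in secondary disease, against 128, 161 and 159 CPM in spleen control. That was a log2 fold change of −4.66 ± 0.64 (edgeR adjusted p = 0.00233). Bst2 (tetherin), which holds budding virus at the membrane, had 6.91, 8.56, 6.56 and 10.3 CPM in secondary disease, against 59.5, 71.8 and 67.0 CPM in spleen control, a log2 fold change of −3.04 ± 0.45 (edgeR adjusted p = 0.00376). Ifitm3, which blocks viral fusion, fell by 2.67 ± 0.54 (edgeR adjusted p = 0.0214). Ifitm2 was at 29.7, 45.8, 39.4 and 26.2 CPM in secondary disease, against 69.4, 80.9 and 72.4 CPM in spleen control. These ranges did not overlap, yet the log2 fold change of −1.07 ± 0.77 did not pass (edgeR adjusted p = 0.590).

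Of 6 ADP-ribosylation and nuclear genes, 4 fell: Sp100, a nuclear body protein, by 1.79 ± 0.29 (edgeR adjusted p = 0.00666), and Parp9, its partner ligase Dtx3l and Parp14, by 1.90, 1.48 and 1.45 in that order. Of 6 metabolic and nuclease effectors, Samd9l, a brake on translation and growth, fell by 1.84 ± 0.29 (edgeR adjusted p = 0.00615) and the exonuclease gene Isg20 by 2.09 ± 0.46 (edgeR adjusted p = 0.0317). Trim30a, a ubiquitin ligase, fell by 4.14 ± 0.65 (edgeR adjusted p = 0.00580) and Xaf1, an antagonist of the apoptosis inhibitor XIAP, by 2.80 ± 0.55 (edgeR adjusted p = 0.0187). None of the 5 IFIT and MX effectors tested passed. Ifit1, which binds foreign RNA at its 5′ end, had 1.28, 2.74, 4.65 and 0 CPM in secondary disease, against 4.53, 4.60 and 4.93 CPM in spleen control, so it was low in both groups. Mx1 was at 0.0822 ± 0.140 CPM (SD, n = 4) in secondary disease and 0.708 ± 0.177 CPM (n = 3) in spleen control, with a log2 fold change of −2.94 ± 0.93 (edgeR adjusted p = 0.139). Rsad2 and Ifit3 had log2 fold changes of −2.18 ± 1.22 and −0.33 ± 0.90 (edgeR adjusted p = 0.444 and 0.918).

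Phf11d (ENSMUSG00000068245, chr14:59347407-59365470, minus strand), a PHD finger gene of the Phf11 cluster, moved the other way. It had 5.51, 5.90, 7.22 and 11.1 CPM in secondary disease, against 2.33, 2.36 and 2.60 CPM in spleen control. Every secondary disease library was above every control, and the log2 fold change was 1.60 ± 0.27 (edgeR adjusted p = 0.00825). Phf11d, Phf11a and Phf11b, Ifit3 and Ifit3b, the Ifitm genes, Slfn8 and Trim30a have close paralogs nearby, so the split of reads among copies is uncertain.

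Of the fallen members, 11 kept their call in each of the 16 fits that left out a library and in the 7 other settings run: Usp18, Ddx58, Rtp4, Irf7, Lgals3bp, Bst2, Trim30a, Samd9l, Irf9, Sp100 and Isg15. The number of members called was 11 without spleen control replicate 2, 12 without spleen control replicate 1 or 3, 14 without secondary disease replicate 1, 2 or 3, and 27 without secondary disease replicate 4. It reached 29 without spleen doxycycline replicate 2. Genes called over the whole table moved as well, from 293 in the main fit. They numbered 61 to 88 without a spleen control, and 147 to 173 without secondary disease replicate 1, 2 or 3. Without secondary disease replicate 4 they were 523, and 513 without spleen doxycycline replicate 2. In a fit of secondary disease and spleen control alone Phf11d was not called.

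**Figure D3:**
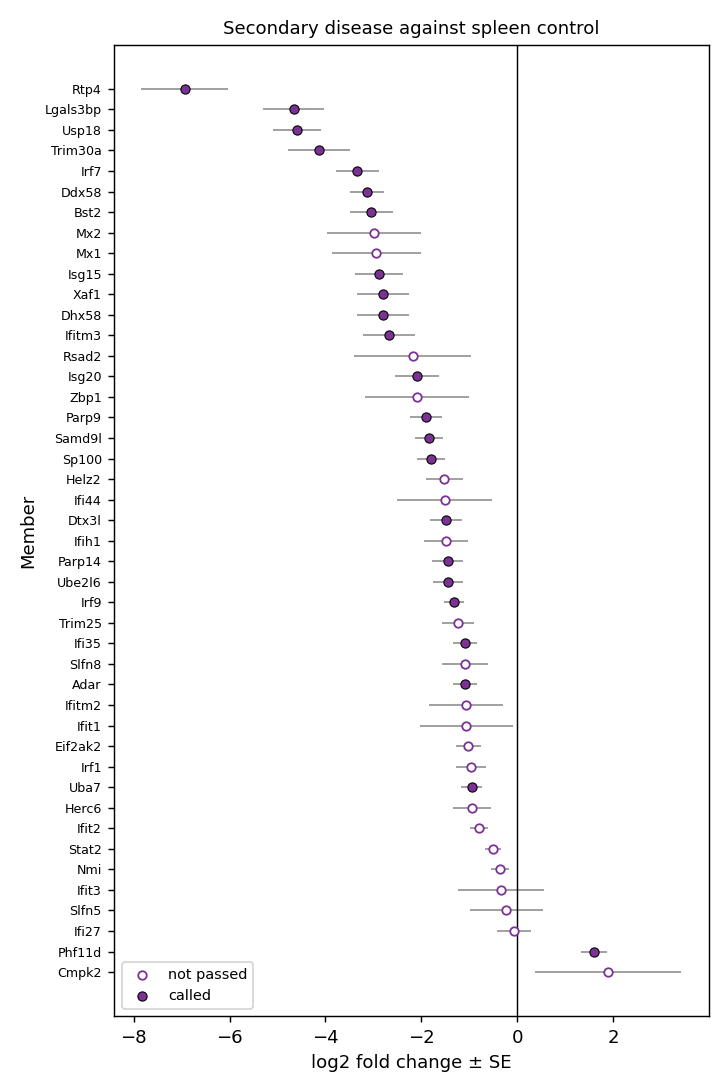
Log2 fold change of the 44 members in secondary disease against spleen control (x axis) with its standard error, members down the page by size; filled points passed the test. Values run from −6.94 for Rtp4 to 1.90 for Cmpk2, and the called members are 22 below 0 and Phf11d above it.

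Against spleen doxycycline, secondary disease was lower for 8 members and higher for none, with 36 that did not pass, where 0.707% of all genes fell and 0.222% rose. The members' median log2 fold change was −0.93, against −0.01 over all genes. The 8 were Usp18, Isg15, Irf9, Lgals3bp, Ube2l6, Irf7, Rtp4 and Isg20. Isg15 had 6.91, 10.2, 11 and 12.6 CPM in secondary disease, against 41.4, 210 and 33.1 CPM in spleen doxycycline. All 4 values lay below the lowest doxycycline library, with a log2 fold change of −3.22 ± 0.50 (edgeR adjusted p = 0.0201). Usp18 fell by 3.42 ± 0.48 (edgeR adjusted p = 0.0196), Rtp4 by 4.99 ± 0.85 (edgeR adjusted p = 0.0210) and Irf7 by 2.68 ± 0.44 (edgeR adjusted p = 0.0201). Irf9, Ube2l6 and Lgals3bp had log2 fold changes of −1.30 ± 0.21, −1.91 ± 0.32 and −3.81 ± 0.63 (edgeR adjusted p = 0.0201 each). Isg20 ranges overlapped (7.14 to 9.37 CPM in secondary disease, 8.83 to 70.8 CPM in spleen doxycycline). The largest spleen doxycycline value was replicate 2 in each of the 8. That library also had the highest erythroid level: the markers summed to 4080 to 6810 CPM in secondary disease, against 5700, 86700 and 41100 CPM in spleen doxycycline. Of 9 erythroid markers, 4 fell and all had a negative log2 fold change (median −3.08), and their part in the members' values was not tested. With only these 2 groups in the model 0 members were called. The count was also 0 without secondary disease replicate 1, 2 or 3, and 13 without replicate 4. It was 15, 3 and 21 without spleen doxycycline replicate 1, 2 and 3. The share of all genes that fell moved as well, from 0.707% in the main fit to 0% with only these 2 groups. It was 0.0348%, 0% and 0% without secondary disease replicate 1, 2 and 3, and 2.96% without replicate 4. Without spleen doxycycline replicate 1, 2 and 3 it was 4.91%, 0.174% and 2.23%. Without spleen doxycycline replicate 1, 1 of the 15 members rose, where 4.04% of all genes did.

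In bone marrow, 7 days of doxycycline went with a partial rise. Isg15, Ifit1, Ifi27 and Irf9 rose, Ifit2 and Ifitm2 fell, and 38 members did not pass, where 3.96% of all genes rose and 2.61% fell. The members' median log2 fold change was 0.40, against −0.02 over all genes. The 3 doxycycline libraries lay above the 3 controls for 25 members (23.1% of all genes) and below them for 7 (24.6% of all genes).

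Isg15 had 126, 191 and 155 CPM in bone marrow doxycycline, against 15.9, 22.1 and 23.3 CPM in bone marrow control. No value of one group approached the other, and the log2 fold change was 2.95 ± 0.55 (edgeR adjusted p = 0.0115). Ifit1 (ENSMUSG00000034459, chr19:34640871-34650009, plus strand) had 51.2, 68.0 and 61.0 CPM in bone marrow doxycycline, against 1.02, 3.14 and 3.79 CPM in bone marrow control. It was low in every control and uniform with doxycycline, a log2 fold change of 4.50 ± 1.16 (edgeR adjusted p = 0.0352). Ifi27 had 178, 197 and 202 CPM in bone marrow doxycycline, against 65.8, 66.7 and 60.7 CPM in bone marrow control (log2 fold change 1.58 ± 0.38, edgeR adjusted p = 0.0274). Irf9 had 165, 169 and 154 CPM in bone marrow doxycycline, against 88.5, 82.0 and 91.7 CPM in bone marrow control (log2 fold change 0.90 ± 0.23, edgeR adjusted p = 0.0351). In both genes the doxycycline libraries were close together and above all controls.

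Ifit2, a paralog of Ifit1 in the same cluster on chromosome 19, went the other way, with 18.2, 15.7 and 15.6 CPM in bone marrow doxycycline, against 36.0, 47.4 and 38.8 CPM in bone marrow control. The groups were apart, with a log2 fold change of −1.30 ± 0.21 (edgeR adjusted p = 0.00597). Ifitm2 (ENSMUSG00000060591, chr7:140954837-140955987, minus strand) had 4.27, 6.92 and 4.46 CPM in bone marrow doxycycline, against 54.9, 69.8 and 57.6 CPM in bone marrow control. Every doxycycline library was far below every control, and the log2 fold change was −3.54 ± 0.93 (edgeR adjusted p = 0.0375). Ifitm3, its neighbour, did not pass (−0.92 ± 0.56, edgeR adjusted p = 0.382).

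Some members that did not pass in this model were also apart by group. Irf7 had 93.1, 133 and 96.5 CPM in bone marrow doxycycline, against 30.8, 34.3 and 44.1 CPM in bone marrow control (log2 fold change 1.56 ± 0.47, edgeR adjusted p = 0.0629). Usp18 had 29.8, 37.3 and 32.2 CPM in bone marrow doxycycline, against 9.95, 12.9 and 11.5 CPM in bone marrow control (log2 fold change 1.53 ± 0.49, edgeR adjusted p = 0.0778). Both were higher in all 3 doxycycline libraries than in any control. Ddx58, Ifih1 and Stat2, with log2 fold changes of 0.39, 0.55 and 0.33, did not overlap between groups either. Bst2 and Xaf1, at 0.32 and 0.34, overlapped, as did Ifit3, Mx1 and Rsad2.

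The model of 16 libraries shares 1 estimate of the spread. In a model of the 6 bone marrow libraries alone, 24 members rose and 5 fell, where 17.9% of all genes rose and 18.6% fell. In that fit Irf7, Usp18, Ifih1, Stat2 and Ddx58 passed. The count of 6 called became 11 without spleen doxycycline replicate 2 or secondary disease replicate 4, 10 without spleen doxycycline replicate 3, 3 without any one spleen control, 2 without bone marrow control replicate 3 or bone marrow doxycycline replicate 1 or 3, 1 without bone marrow control replicate 1 or bone marrow doxycycline replicate 2, and 0 without bone marrow control replicate 2. Genes called over the whole table moved as well, from 949 in the main fit. They numbered 2062 without spleen doxycycline replicate 2, 2428 without secondary disease replicate 4 and 1063 without spleen doxycycline replicate 3. Without a spleen control they were 525 to 568, and 23 without bone marrow control replicate 2. Without any other bone marrow library they were 111 to 232. Each fit tested 14263 to 15076 genes. Red cell genes moved with this group too: 9 of 9 tested erythroid markers rose, and their summed level was 48200 to 60900 CPM in bone marrow doxycycline, against 2310 to 4340 CPM in bone marrow control. Of the macrophage and B cell markers, 1 each also rose. Neutrophil markers lay the other way, at a summed 321 to 647 CPM in bone marrow doxycycline, against 869 to 1310 CPM in bone marrow control. All 10 had a negative log2 fold change, 8 did not overlap between groups and 0 passed. The part of these in the members' values was not tested.

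Spleen doxycycline against spleen control gave no such picture. Phf11d rose, Ddx58 fell and 42 members did not pass, where 0.568% of all genes rose and 0.173% fell. The members' median log2 fold change was −0.66, against 0.02 over all genes, and 39 of the 44 values were below 0 (47.6% of all genes). The 3 doxycycline libraries lay below the 3 controls for 14 members (10.7% of all genes) and above them for 2 (9.34%).

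Phf11d had 16.4, 14.0 and 9.56 CPM in spleen doxycycline, against 2.33, 2.36 and 2.60 CPM in spleen control. All 3 doxycycline values were above the controls, with a log2 fold change of 2.45 ± 0.29 (edgeR adjusted p = 0.0102). Ddx58 had 50.9, 40.8 and 11 CPM in spleen doxycycline, against 121, 115 and 112 CPM in spleen control. All 3 were below the controls, and replicate 3 was lowest, with a log2 fold change of −1.76 ± 0.37 (edgeR adjusted p = 0.0488). Samd9l, next by p, did not pass (−0.97 ± 0.31, edgeR adjusted p = 0.177).

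The 3 spleen doxycycline libraries did not resemble each other in these genes. Replicate 2 was the highest of the 3 for 31 members (35% of all genes), and replicate 3 the lowest for 30 (26.5% of all genes). Against the range of the 3 spleen controls, replicate 1 was above for 4 members (39.5% of all genes) and below for 36 (39.1%). Replicate 2 was above for 19 (40.4%) and below for 19 (41.9%), and replicate 3 above for 4 (39.8%) and below for 38 (40.6%). Isg15 at 41.4, 210 and 33.1 CPM and Irf7 at 67.0, 131 and 17.2 CPM show replicate 2 above the control range (66.6 to 88.9 CPM for Isg15, 103 to 121 CPM for Irf7) and replicates 1 and 3 below it. Lgals3bp was at 83.4, 157 and 7.25 CPM and Xaf1 at 27.6, 29.3 and 2.17 CPM in spleen doxycycline, against 128 to 161 CPM and 50.4 to 53.3 CPM in spleen control. Replicate 3 was close to the secondary disease level for Lgals3bp (4.96 to 6.51 CPM) and below it for Xaf1 (5.86 to 10.4 CPM).

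Ifit1 and Ifitm2 split the libraries in another way. Ifit1 had 1.89, 101 and 24.4 CPM in spleen doxycycline, against 4.53, 4.60 and 4.93 CPM in spleen control (log2 fold change 3.17 ± 1.08, edgeR adjusted p = 0.205). Ifitm2 had 98.5, 2.87 and 5.62 CPM in spleen doxycycline, against 69.4, 80.9 and 72.4 CPM in spleen control (log2 fold change −1.05 ± 0.84, edgeR adjusted p = 0.700). For both genes replicates 2 and 3 lay on the side seen in bone marrow doxycycline, and replicate 1 on the other. The erythroid markers split alike: their summed level was 5700, 86700 and 41100 CPM in the 3 spleen doxycycline libraries, against 2930 to 5010 CPM in spleen control. Without replicate 1, 2 members rose and 4 fell, where 4.5% of all genes rose and 4.63% fell. Leaving out secondary disease replicate 4 gave 4 called members, leaving out spleen control replicate 2 or 3 gave 0, and leaving out any of the other bone marrow libraries, secondary disease libraries or spleen control replicate 1 gave 1, which was then Phf11d. Over all genes, 107 were called in the main fit, 766 without secondary disease replicate 4 and 0 without spleen control replicate 2 or 3. The fits with 1 member called had 2 to 27 genes called.

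**Figure D4:**
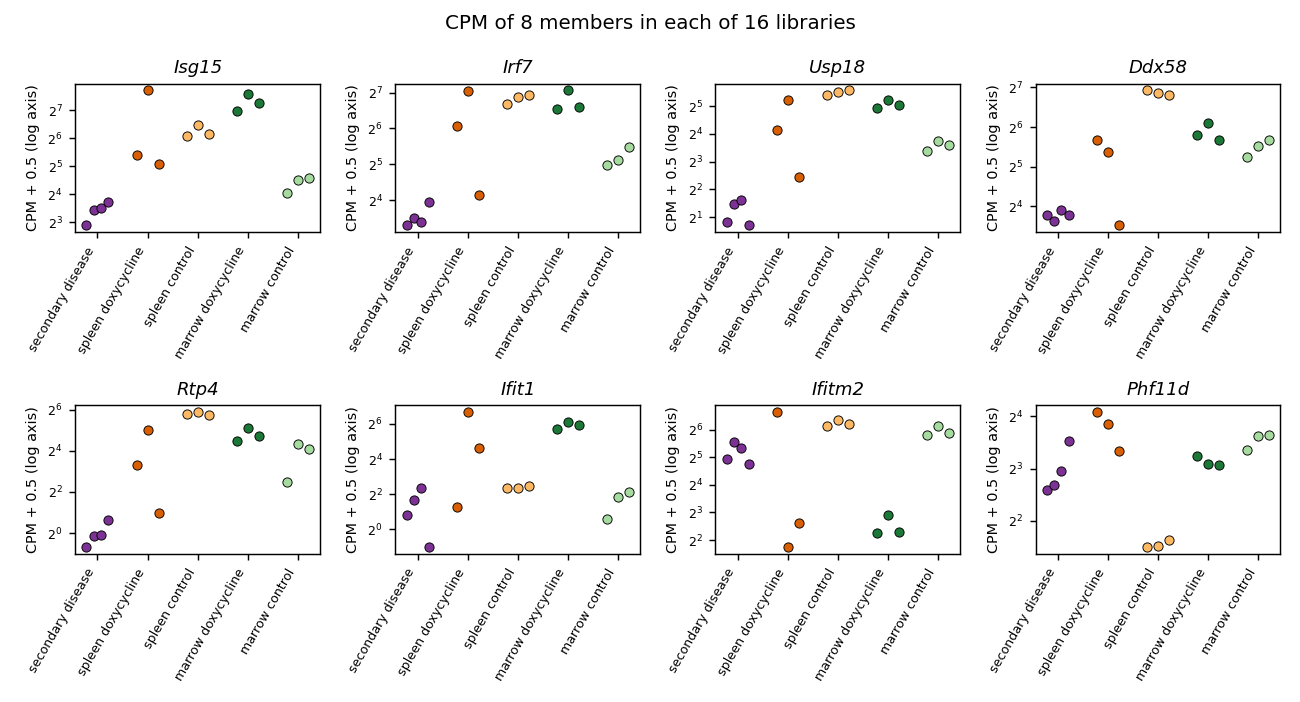
CPM + 0.5 (log axis) of 8 members in each of 16 libraries, by group; points are libraries in replicate order from left to right. Isg15, Irf7, Usp18, Ddx58 and Rtp4 are low in all 4 secondary disease libraries, Ifit1 and Ifitm2 divide spleen doxycycline replicate 1 from replicates 2 and 3, and Phf11d is lowest in spleen control.

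Whether doxycycline acted differently in the 2 tissues was tested as the effect in spleen minus the effect in bone marrow. Phf11d passed as higher, 0 members passed as lower and 43 did not pass, where 0.0277% of all genes passed as higher and 0.0208% as lower. For Phf11d the difference was 2.88 ± 0.40 on the log2 scale (edgeR adjusted p = 0.0207): its values were 9.56 to 16.4 CPM in spleen doxycycline against 2.33 to 2.60 CPM in spleen control, and 7.86 to 8.96 CPM in bone marrow doxycycline against 9.71 to 11.9 CPM in bone marrow control. Of the 44 differences, 37 were below 0 (45.6% of all genes), with a median of −1 against 0.05 over all genes. The next smallest p-values were those of Ddx58 (−2.15 ± 0.51, edgeR adjusted p = 0.170) and Usp18 (−2.70 ± 0.69, edgeR adjusted p = 0.201), which did not pass, and Isg15 had −2.62 ± 0.73 (edgeR adjusted p = 0.261). An unadjusted p under 0.05 was found for 17 members, against 7.63% of all genes. Without spleen doxycycline replicate 2, 1 member passed as higher and 15 as lower, where 2.74% and 1.58% of all genes did. The count was 2 without spleen doxycycline replicate 3, and 0 without any one of the spleen controls, any one of the bone marrow doxycycline libraries, or bone marrow control replicate 2 or 3. Over all genes, 7 passed in the main fit and 27 without spleen doxycycline replicate 3. In the fits that left no member called, 0 to 3 genes passed.

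**Figure D5:**
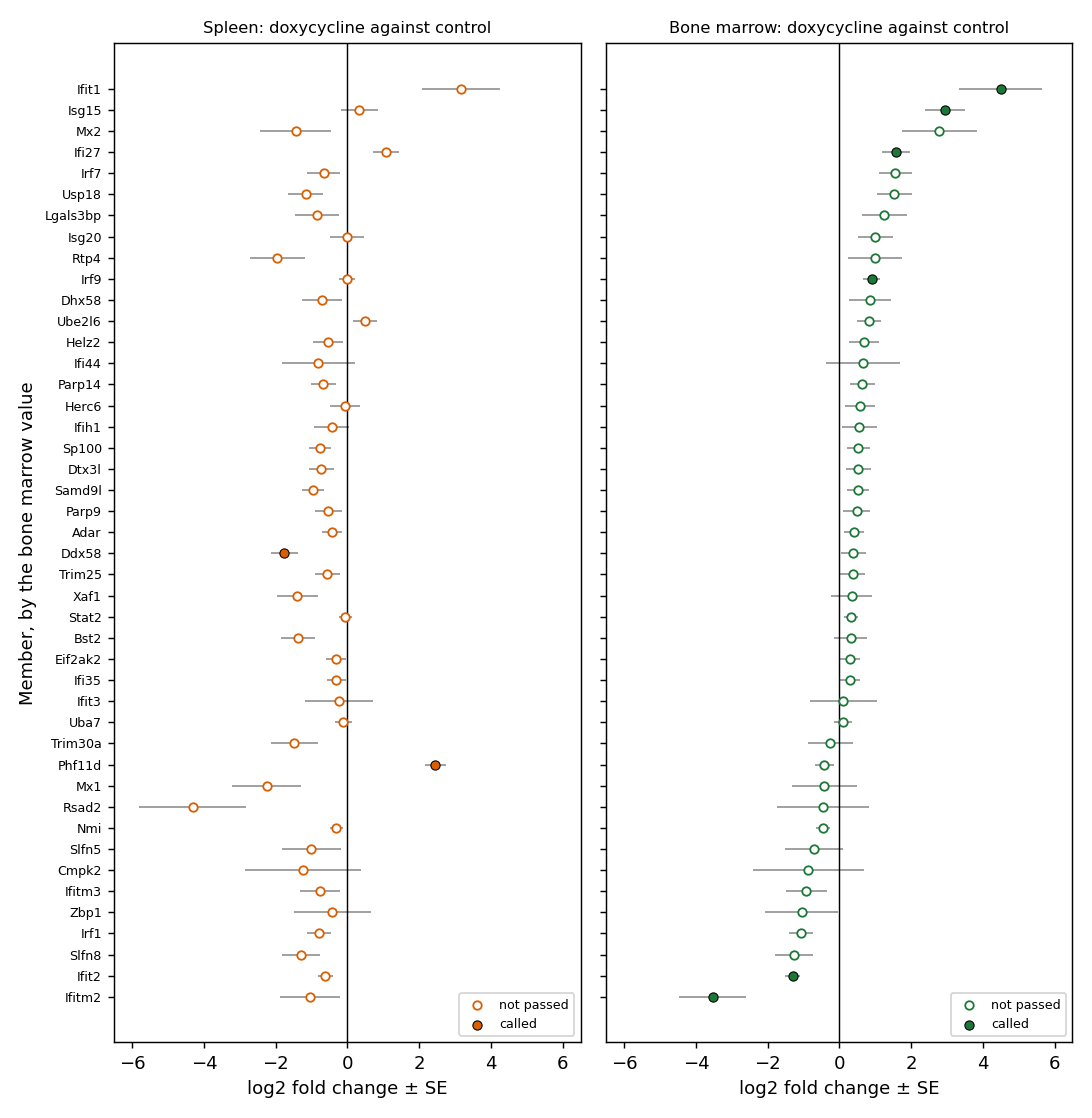
Log2 fold change with its standard error for doxycycline against control in spleen (left) and bone marrow (right), 44 members ordered by the bone marrow value; filled points passed the test. In bone marrow 31 of 44 values are above 0 and in spleen 5 are; the difference between the tissues passed for Phf11d.

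Spleen control against bone marrow control compared the tissues without doxycycline. Phf11d fell, 0 members rose and 43 did not pass, where 0.111% of all genes fell and 0.0762% rose. Even so, the spleen libraries lay above the bone marrow libraries for 27 members (16.3% of all genes) and below them for 3 (16.5%), and the median log2 fold change was 0.71, against −0.01 over all genes. Phf11d had 2.33, 2.36 and 2.60 CPM in spleen control, against 9.71, 11.8 and 11.9 CPM in bone marrow control. The groups were far apart, with a log2 fold change of −2.19 ± 0.29 (edgeR adjusted p = 0.00771).

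Usp18 had 41.7, 45.0 and 47.0 CPM in spleen control, against 9.95, 12.9 and 11.5 CPM in bone marrow control (log2 fold change 1.96 ± 0.50, edgeR adjusted p = 0.156). Ddx58 had 121, 115 and 112 CPM in spleen control, against 37.5, 45.2 and 50.1 CPM in bone marrow control (log2 fold change 1.39 ± 0.36, edgeR adjusted p = 0.169). Rtp4 had 54.7, 58.8 and 53.1 CPM in spleen control, against 5.14, 19.7 and 16.4 CPM in bone marrow control (log2 fold change 2.01 ± 0.77, edgeR adjusted p = 0.504). In each of these genes all spleen values exceeded all marrow values, and none passed. In a model of these 6 libraries alone, 23 members rose and 2 fell, where 7.3% of all genes rose and 7.38% fell. Usp18, Ddx58, Isg15, Irf7, Ifih1, Bst2 and Xaf1 were among those that passed. In the model of all groups the count of 1 became 3 without spleen doxycycline replicate 2, 7 without spleen doxycycline replicate 3, and 0 without spleen control replicate 2 or 3. Over all genes, 27 were called in the main fit, and 114 and 68 without spleen doxycycline replicate 2 and 3. Without spleen control replicate 2 and 3 they were 0 and 1. Neutrophil markers ran the other way, at a summed 52.9 to 166 CPM in spleen control, against 869 to 1310 CPM in bone marrow control; all 10 markers were detected. The part of such cells in the difference was not tested.

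Spleen doxycycline against bone marrow doxycycline had 0 members called in either direction by edgeR, where 0% of all genes rose and 0.0485% fell. The DESeq2 Wald test and limma-voom called 0 members as well, with 438 and 64 genes called over the whole table. By edgeR 3 members had an unadjusted p under 0.05, against 10.9% of all genes. The 3 smallest p-values, which did not pass, were those of Ifitm2 (log2 fold change 2.77 ± 0.90, edgeR adjusted p = 0.253), Phf11d (0.69 ± 0.28, edgeR adjusted p = 0.365) and Ifit2 (0.52 ± 0.21, edgeR adjusted p = 0.366). Phf11d had 16.4, 14.0 and 9.56 CPM in spleen doxycycline, against 8.96, 8.03 and 7.86 CPM in bone marrow doxycycline. Without spleen doxycycline replicate 2, 1 member rose and 9 fell, where 4.34% of all genes rose and 2.84% fell.

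Ifnar1 and Ifnar2, the receptor chains, had log2 fold changes of 0.12 ± 0.13 and 0.03 ± 0.17 in secondary disease against spleen control, and neither passed (edgeR adjusted p = 0.743 and 0.964).

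Of 16 genes listed around interferon production, such as Mavs, Irf3, Myd88 and Cgas, Samhd1 was called in 2 comparisons. The list does not sort genes that promote production from genes that restrain it. Samhd1, a nucleotide hydrolase that limits reverse transcription, had 195, 235 and 190 CPM in bone marrow doxycycline, against 130, 125 and 151 CPM in bone marrow control (log2 fold change 0.61 ± 0.14, edgeR adjusted p = 0.0248). It had 120, 144, 133 and 104 CPM in secondary disease, against 199, 192 and 190 CPM in spleen control (log2 fold change −0.63 ± 0.13, edgeR adjusted p = 0.0273). Neither pair of groups overlapped.

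Of 9 negative regulators, Socs1, which inhibits JAK kinases, fell in both spleen comparisons with controls. It had 8.86, 8.99, 7.30 and 8.41 CPM in secondary disease and 16.4, 3.63 and 6.16 CPM in spleen doxycycline, against 33.2, 34.8 and 33.9 CPM in spleen control. All 7 values lay below the controls. The log2 fold change was −2.02 ± 0.36 in secondary disease (edgeR adjusted p = 0.0118) and −1.95 ± 0.40 in spleen doxycycline (edgeR adjusted p = 0.0451). Socs3, a related inhibitor, was lower in secondary disease than in spleen doxycycline (−2.60 ± 0.57, edgeR adjusted p = 0.0485).

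Markers of plasmacytoid dendritic cells, macrophages and monocytes, and T, NK, B and plasma cells varied between libraries. Neutrophil markers are given above. Siglech, a defining plasmacytoid dendritic cell gene, was at 0 to 0.555 CPM in 15 libraries and at 3.56 CPM in secondary disease replicate 4. The summed plasmacytoid list without Bst2 was at 13.2 to 23.5 CPM in those 15 libraries, of which Tcf4 made up 12.7 to 23.3 CPM. In replicate 4 the sum was 141 CPM, where Pacsin1 alone held 92.8 CPM, Tcf4 43.4 CPM and Cox6a2 1.65 CPM. Ly6d, Ccr9 and Klk1 were at 0 CPM there, and Bst2 was at 10.3 CPM, against 59.5 to 71.8 CPM in spleen control. All 12 macrophage and monocyte markers were detected, and their sum was 19.4 to 163 CPM in secondary disease, 27.3 to 76.9 CPM in spleen doxycycline, 17.5 to 33.8 CPM in spleen control, 41.1 to 89.4 CPM in bone marrow doxycycline and 37.1 to 61.7 CPM in bone marrow control. T and NK cell markers summed to 1.86 to 11.7 CPM except in secondary disease replicate 4, at 19.2 CPM. There Cd4 held 16.8 CPM and Cd3g 2.17 CPM, and Cd3d and Nkg7 were each at 0.0867 CPM. Cd3e, Cd8a, Cd8b1, Ncr1, Klrb1c and Gzma were at 0 CPM in that library. B and plasma cell markers were highest in spleen doxycycline replicate 3, at 124 CPM, the library in which 30 members were the lowest of their group, against 12.4 to 60.6 CPM in the other 15 libraries. Their part in the members' values was not tested.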

How the data were processed

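RNA-seq libraries were made from oligo-dT-enriched RNA of GFP-sorted leukaemia cells with the NEBNext Ultra II kit, per the labels' protocols. The authors' tools were Trim Galore, FastQC, MultiQC, STAR and RSEM on build GRCm38, per the submitters' processing notes, with versions and strand setting not given in the sources used here; reads of a gene and an antisense partner cannot be told apart. The authors deposited RSEM expected counts for 16 libraries in 1 table (5.8% to 10.8% of values per library not whole), and the deposited TPM values per library were also computed by the authors. Each of 16 TPM files matched its own count column best.

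Expected counts were rounded, filtered with filterByExpr (14435 of 55487 genes) and tested with edgeR 4.0.16 (R 4.3.3; TMM, robust quasi-likelihood F test) in 1 model with a mean for each of 5 groups. P-values were adjusted by Benjamini-Hochberg over all genes tested and called under 0.05. SE is the log2 fold change divided by the root of F. CPM plots add 0.5. A floor of 3 counts is 0.0737 to 0.26 CPM, and covers counting error only. No 2 libraries agreed within counting noise (lowest chi-square 7.87 per degree of freedom). Groups came from the labels. The fit was run on simulated counts with the same spread in every gene and library, which leaves out libraries that stand apart.

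Members and gene lists were chosen with earlier results of these data known. Values are given for 13 anchor members, for up to 8 called members with the smallest p in each direction (the 3 smallest where fewer than 3 were called), for the 3 highest by median TPM, for called members against the members' direction, and for called genes of other lists. Alternatives were DESeq2 1.42.0 size factors and Wald test, limma 3.58.1 voom, no filter, a minimum mean count of 50, a replicate block, only the groups compared, and each library left out. Coordinates are GRCm38 with GENCODE M21 (55394 gene IDs matched). The list symbol Ahsp was not used here. Some results for the receptor and signalling list are not reported here.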

Additional observations from a re-analysis of the deposited data

Results flagged for a closer look

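Within secondary disease, 10 of the 44 members tested had 1 library far from the other 3. The outlier test used has a nominal rate of 5%, but the share flagged over all genes was not computed. The count therefore shows nothing particular to these members. In 9 of the 10 the library was replicate 4, the one with the fewest counts. Over all genes replicate 4 also differed from the other 3, by a chi-square of 227 to 251 per degree of freedom. It was low for Irf9 (39.1 CPM, others 56.9 to 58.9 CPM), Trim25 (31.5 CPM, others 88.4 to 89 CPM), Ifit2 (13.4 CPM, others 22.9 to 24.4 CPM), Slfn8 (0.347 CPM, others 1.91 to 2.24 CPM) and Parp14 (30.2 CPM, others 54.7 to 57.4 CPM). It was high for Mx2 (2.08 CPM, others 0.0782 to 0.234 CPM), Cmpk2, a mitochondrial nucleotide kinase (12.6 CPM, others 0 to 0.248 CPM), Slfn5 (10.1 CPM, others 0.742 to 1.02 CPM) and Ifi27 (85 CPM, others 45.7 to 48.5 CPM). Mx1 stood out in replicate 1, at 0.29 CPM, against 0 to 0.039 CPM in the others, which is near the floor of 3 counts.

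The effect of doxycycline on Phf11d differed between tissues: the log2 difference, spleen minus bone marrow, was 2.88 by the interaction term of the edgeR model.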

How the results depend on the processing

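DESeq2 size factors and a mean count of at least 50 kept each count of called members within 1.5 times. Without the filter on low counts, the calls became 2 in bone marrow doxycycline against control, 1 in spleen doxycycline against control, 0 in the difference between tissues, 15 in secondary disease against spleen control and 5 against spleen doxycycline. Over all genes they were 349, 10, 2, 134 and 26 in that order, against 949, 107, 7, 293 and 134 in the main fit. With only the groups compared, the calls of members were 29 in bone marrow doxycycline, 0 in spleen doxycycline, 25 in spleen against bone marrow control and 0 in secondary disease against spleen doxycycline. Over all genes they were 4929, 1, 1927 and 0 in that order. The DESeq2 Wald test called 10 members in bone marrow doxycycline, 5 in the difference between tissues, 6 in spleen against bone marrow control and 19 in secondary disease against spleen doxycycline. In the last 2 comparisons limma-voom called 2 members each. Over all genes the Wald test called 1996, 250, 304 and 866 in that order, and limma-voom 170 and 66. No member called in the main fit reversed its direction. Some members that did not pass changed sign: in spleen doxycycline against control 39 were below 0 in the main fit. With DESeq2 size factors 38 were, and with limma-voom 40. The cause of these shifts was not tested.

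Leaving out 1 library at a time gave 0 to 11 calls in bone marrow doxycycline, 0 to 6 in spleen doxycycline, 0 to 16 in the difference between tissues, 0 to 7 in spleen against bone marrow control, 0 to 10 in spleen against bone marrow doxycycline, 11 to 29 in secondary disease against spleen control and 0 to 21 against spleen doxycycline. Over all genes the first 4 ranges were 23 to 2428, 0 to 1364, 0 to 645 and 0 to 190. The last 3 were 1 to 1072, 61 to 523 and 0 to 1336. Members highest in spleen control numbered 24 to 30 and lowest in secondary disease 32 to 37 under every alternative run.

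Samples with the same number did not deviate together (correlations −0.38 to 0.19). With so few libraries in a group this cannot exclude pairing, and the labels do not state any. A fit with the replicate block gave 4 calls in spleen doxycycline against control, and moved no other count by over 1.5 times. Over all genes that comparison had 374 calls, against 107 in the main fit. Number 4 occurs only in secondary disease, so the block also takes that library out of the fit. Leaving out that library without a block also gave 4 calls there. Members under the floor of 3 counts in some libraries, such as Mx1, Zbp1 and Ifit3, are limited by depth.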
